A study of Mus musculus with 8 samples.

Results

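The TGF-beta ligand, receptor and SMAD genes examined here are 10 genes of the 21887 protein-coding genes in the annotation: the ligand genes Tgfb1, Tgfb2 and Tgfb3, the receptor genes Tgfbr1 and Tgfbr2, the signal transducer gene Smad3, the inhibitor gene Smad7, the latent binding protein genes Ltbp1 and Ltbp2, and the matrix gene Tgfbi. They were chosen by name, for their place in 1 pathway, with earlier results of these data known. For each, the ATAC-seq peaks overlapping its mm10 gene body or the 10 kb next to each end (the locus) were compared in position and presence over 5 deposited peak lists. ATAC-seq marks open chromatin by the sites that a transposase can cut, and a peak is a stretch with more cuts than its surroundings. All samples came from mice with floxed alleles of the Rb family (a triple knockout), a model of liver cancer, and no sample with intact alleles was used here. Cells of digested liver or visible lesions were sorted by flow cytometry on YFP, a mark of Cre recombination, and on the surface proteins EpCAM and Thy1. The 8 labelled samples form 5 groups, namely EpCAM-high CK19 (2 samples), EpCAM-high Sox9 (1 sample), Thy1+ CK19 (2 samples), Thy1+ Sox9 (1 sample) and EpCAM-negative (2 samples). The labels do not give the promoter that drives Cre, the animals' age, whether animals were pooled, or what CK19 and Sox9 stand for in the names.

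Of the 5 lists, 2 are named EpCAM-high (CK19, then Sox9), 2 Prog-like (CK19, then Sox9) and 1 Tumor (Sox9), and values follow this order unless a list is named. The EpCAM-high lists bear the names of 2 sample groups, and the other 3 names occur in no label, so those lists were assigned to no sorted group. Each condition has a single list, so the spread between replicates is unknown and no difference between lists was tested. The lists held 56932, 59454, 71375, 67855 and 39644 peaks at unknown read depth. Peak counts, start-site peaks, comparisons of counts between lists and shares of regions held by pairs of lists were therefore repeated at equal length. Equal length means the 39644 peaks of lowest p in every list. Which of the 5 lists held each merged region, and where these regions lay, was taken from the lists as deposited only. These are bulk samples, in which fewer cells of a type and less open chromatin per cell cannot be told apart.

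TGF-beta is secreted in a latent complex with its own propeptide and a latent TGF-beta binding protein, which ties it to the extracellular matrix until it is released. The active ligand joins the type II receptor to the type I receptor, which phosphorylates SMAD2 and SMAD3, and these enter the nucleus with SMAD4 and bind DNA at short SMAD boxes. SMAD7 is induced by the signal and blocks the type I receptor. In liver the pathway restrains epithelial growth and drives scar formation by stellate cells.

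Promoter sequences are shown for 4 members, to set the shared start sites of the receptor genes beside start sites that part of the lists lacked. Tgfbr1 and Tgfbr2 had a start-site peak in every list while the rest of their loci differed between lists, and Ltbp1 and Tgfbi lacked a start-site peak in part of the lists. The sequences are from RefSeq (GRCm38.p6, the build mm10), 5′ to 3′ on the strand of the gene, and end just before the gene body. Capitals mark SMAD boxes (CAGAC or its reverse complement) and CCAAT boxes, and in Ltbp1 also the cyclic AMP response element TGACGTCA. They cover chr4:47352972-47353221 (plus strand, Tgfbr1), chr9:116175364-116175613 (minus strand, Tgfbr2), chr17:75005279-75005479 (plus strand, Ltbp1) and chr13:56609336-56609585 (plus strand, Tgfbi).
Tgfbr1: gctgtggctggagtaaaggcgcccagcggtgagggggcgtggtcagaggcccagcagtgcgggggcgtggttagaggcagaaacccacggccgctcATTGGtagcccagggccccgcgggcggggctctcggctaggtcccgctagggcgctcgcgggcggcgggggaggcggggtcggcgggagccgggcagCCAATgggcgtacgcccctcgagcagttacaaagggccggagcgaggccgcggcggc
Tgfbr2: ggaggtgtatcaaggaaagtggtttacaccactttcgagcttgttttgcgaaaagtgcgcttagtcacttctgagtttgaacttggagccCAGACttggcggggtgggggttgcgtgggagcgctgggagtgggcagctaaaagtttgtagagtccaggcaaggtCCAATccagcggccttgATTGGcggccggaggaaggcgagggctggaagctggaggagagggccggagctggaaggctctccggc
Ltbp1: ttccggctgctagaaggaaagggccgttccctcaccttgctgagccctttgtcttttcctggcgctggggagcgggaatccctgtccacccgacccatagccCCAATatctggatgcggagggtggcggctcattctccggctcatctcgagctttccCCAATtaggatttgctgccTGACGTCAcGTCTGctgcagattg
Tgfbi: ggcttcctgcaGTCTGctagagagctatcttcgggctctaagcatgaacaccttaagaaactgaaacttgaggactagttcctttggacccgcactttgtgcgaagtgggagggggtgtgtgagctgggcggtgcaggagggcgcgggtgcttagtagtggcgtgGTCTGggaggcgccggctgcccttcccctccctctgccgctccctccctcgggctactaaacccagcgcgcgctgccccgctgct

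The Tgfbr1 stretch was the richest of these 4 in G and C, at 74.8% of its bases, against 58.4% for Tgfbr2, 58.7% for Ltbp1 and 62.4% for Tgfbi. Motifs were searched on both strands in RefSeq windows of 300 bases around each start, of which 32851 served as the background. The SMAD box CAGAC was present in 49.6% of all windows and the CCAAT box in 37.4%. Tgfbr1 had no SMAD box and 2 CCAAT boxes in the window of its first start, and Tgfbr2 had 1 and 2. Ltbp1 had 1 SMAD box, 3 CCAAT boxes (1 of them runs past the end of the printed stretch and is not capitalised) and the cyclic AMP response element, which 1.79% of windows held. Tgfbi had 2 SMAD boxes and no CCAAT box. The AP-1 motif TGANTCA (7.81% of windows) and the PU.1 motif GAGGAAGT (3.20%) had no match in the windows of the 8 members searched. Tgfb3 and Smad7 were not searched. These matches are descriptions of letters and do not show that a factor bound there.

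All 10 members had at least 1 locus peak in every list, where the share of all protein-coding genes with one was 75.8%, 74.6%, 74.5%, 72.4% and 68.8%. The member loci are long, with gene bodies of 18.1 to 387 kb, and a long locus takes in more peaks. Among the 10252 genes in that length range the shares were 87.8%, 87.5%, 86.5%, 84.1% and 80.3%, so the presence of a peak somewhere in the locus lies near the background. Together the member loci held 51, 65, 84, 86 and 30 peaks, and 39, 41, 53, 52 and 30 at equal length. The median member held 3.5, 3.5, 7.5, 8 and 2.5 peaks, and 2, 2, 4.5, 4.5 and 2.5 at equal length. The median gene of the same length range held 2, 2, 3, 3 and 2, and 2 in every list at equal length. By sum and median the members' peak number was thus highest in the Prog-like lists. Tgfbr2 weighed heavily on the sums. At equal length it alone held 15 and 14 of the 53 and 52 Prog-like peaks, and 2 in each EpCAM-high list. The members differed among themselves in which lists held the peaks, as the map of counts shows.

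**Figure D1:**
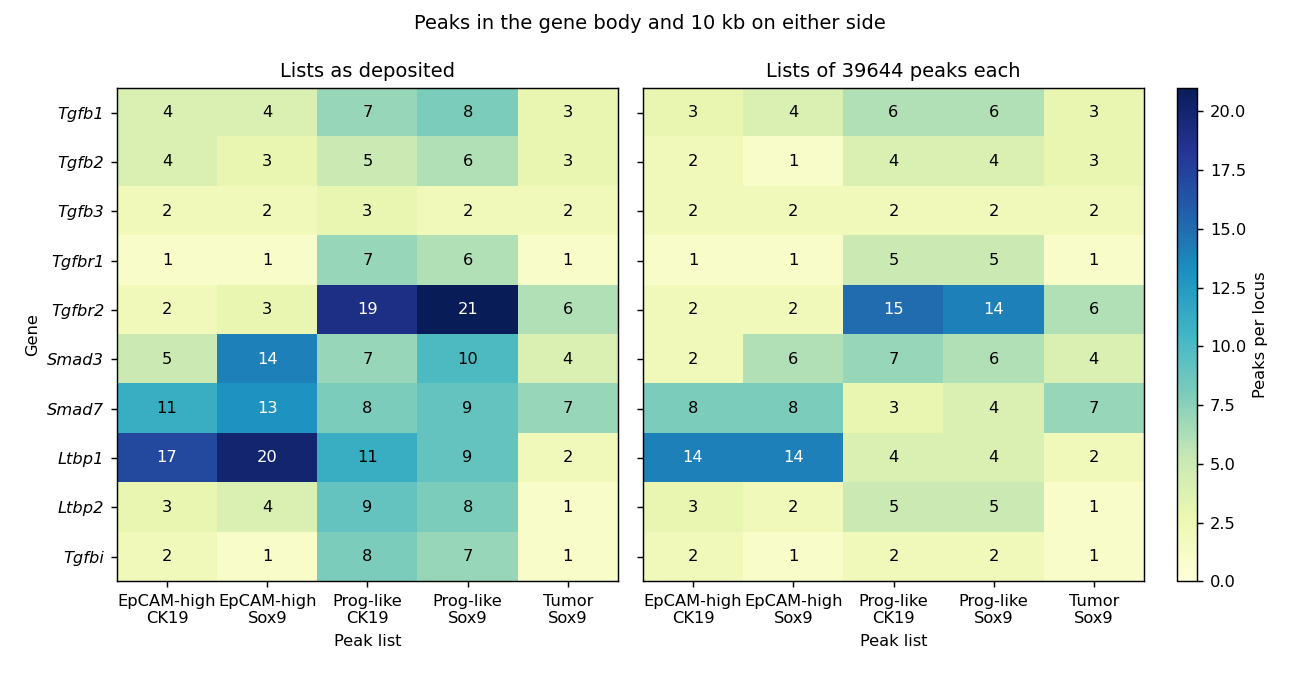
Number of peaks in each member's locus (gene body and 10 kb on either side; rows) in each of the 5 peak lists (columns), for the lists as deposited (left) and reduced to 39644 peaks each (right); darker cells hold more peaks. Tgfbr2 reached 19 and 21 in the Prog-like lists, far above the 2 and 3 of the EpCAM-high lists, and Ltbp1 had the opposite order.

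The 3 ligand genes encode the secreted TGF-beta proteins. Tgfb1 (chromosome 7, 25687002 to 25705077), the main isoform of injured liver, held 4, 4, 7, 8 and 3 peaks. It was higher in the Prog-like lists, and at equal length it still held 6 and 6 there against 3 and 4 in the EpCAM-high lists. Its 7 merged regions (overlapping peaks joined over the lists) comprised 3 present in all 5 lists and 3 in both Prog-like lists alone. Of the 7, 3 lay in the neighbouring genes B9d2 and Ccdc97, and 1 of those at the B9d2 start. A region 19.99 kb downstream of the Tgfb1 start (25705715 to 25708268) was the widest of those held by the Prog-like lists alone at this gene, at 2554 bp.

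Tgfb2 (chromosome 1, 186622787 to 186709697) held 4, 3, 5, 6 and 3 peaks, and 2, 1, 4, 4 and 3 at equal length. The Prog-like lists were the highest in both settings, and the Tumor list stood above the EpCAM-high lists at equal length only. Of its 11 regions, 4 were held by both Prog-like lists alone, and the strongest of these lay 28.1 kb into the gene (186677635 to 186678233). It ranked in the top 12.3% of Prog-like CK19 peaks and the top 5.77% of Prog-like Sox9 peaks by the authors' −log10 p. A region 23.2 kb into the gene was held by the Tumor list alone and ranked in its top 13.3%. The start-site peak of Tgfb2 ranked in the top 9.15% and 9.52% of the EpCAM-high lists, 32.0% and 32.7% of the Prog-like lists and 47.1% of the Tumor list. Ranks hold within a list and do not measure a change between lists.

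Tgfb3 (chromosome 12, 86056743 to 86079041) held 2, 2, 3, 2 and 2 peaks, and 2 in every list at equal length. It was the member that varied least, with 1 region at a gene end in all 5 lists. A region in the flank at the Ift43 start was held by all lists but Prog-like Sox9, and a region inside Ttll5 by both Prog-like lists alone. Only 1 of its 3 regions therefore lay outside other genes.

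Both receptor genes held more peaks in the Prog-like lists than in the other 3. Tgfbr1 (chromosome 4, 47353222 to 47414926), the type I receptor, held 1, 1, 7, 6 and 1 peaks, and 1, 1, 5, 5 and 1 at equal length. The Prog-like lists stood apart from the other 3, which held the start-site peak and nothing else. The start-site peak had its summit at -24, -50, -24, -108 and -89 bp from the start and ranked in the top 9.18%, 2.67%, 1.57%, 1.46% and 27.5% of its list. Besides the start, 5 of the 7 regions were held by both Prog-like lists alone. They lay 6.22 kb upstream of the start and 9.55, 25.5, 42.5 and 45.2 kb downstream, the last 4 inside the gene.

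Tgfbr2 (chromosome 9, 116087695 to 116175363), the type II receptor that binds the ligand, held 2, 3, 19, 21 and 6 peaks. At equal length it held 2, 2, 15, 14 and 6. Both Prog-like lists stood above the Tumor list, which in turn stood above both EpCAM-high lists. Per 10 kb of locus this was 0.186, 0.279, 1.76, 1.95 and 0.557 peaks, and peaks covered 12.8% and 10.5% of the locus in the Prog-like lists compared with 1.87% and 1.70% for EpCAM-high and 4.03% for Tumor. Of its 25 regions, 13 were held by both Prog-like lists alone (52.0%, exact 95% interval 31.3 to 72.2) and none by both EpCAM-high lists alone. No other protein-coding gene had the same 5 counts as Tgfbr2 at equal length, and the same was true of Smad3, Smad7 and Ltbp1.

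The Prog-like regions of Tgfbr2 were spread over the whole locus, as the map of peaks at the receptor genes shows. The strongest outside the start lay 3.03 kb upstream of it (116178085 to 116178705), in the top 8.21% and 7.31% of the Prog-like lists. Others lay 29.4 kb into the gene (116145205 to 116146745, top 9.94% and 14.8%) and 73.5 kb into it (116101187 to 116102444, top 11.8% and 9.20%). The Tumor list shared 2 regions with the Prog-like lists and not with the EpCAM-high lists, at 38.3 and 90.9 kb from the start. With EpCAM-high Sox9 and no Prog-like list it shared 1 region (83.6 kb), and its own highest-ranked peak at the locus lay 63.6 kb into the gene, in the top 8.01%. That region was also held by EpCAM-high CK19 and both Prog-like lists. The start-site peak of Tgfbr2 was in all 5 lists, with summits 147, 63, 147, 64 and 13 bp downstream of the start and ranks in the top 15.0%, 14.3%, 7.02%, 6.43% and 20.0%.

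**Figure D2:**
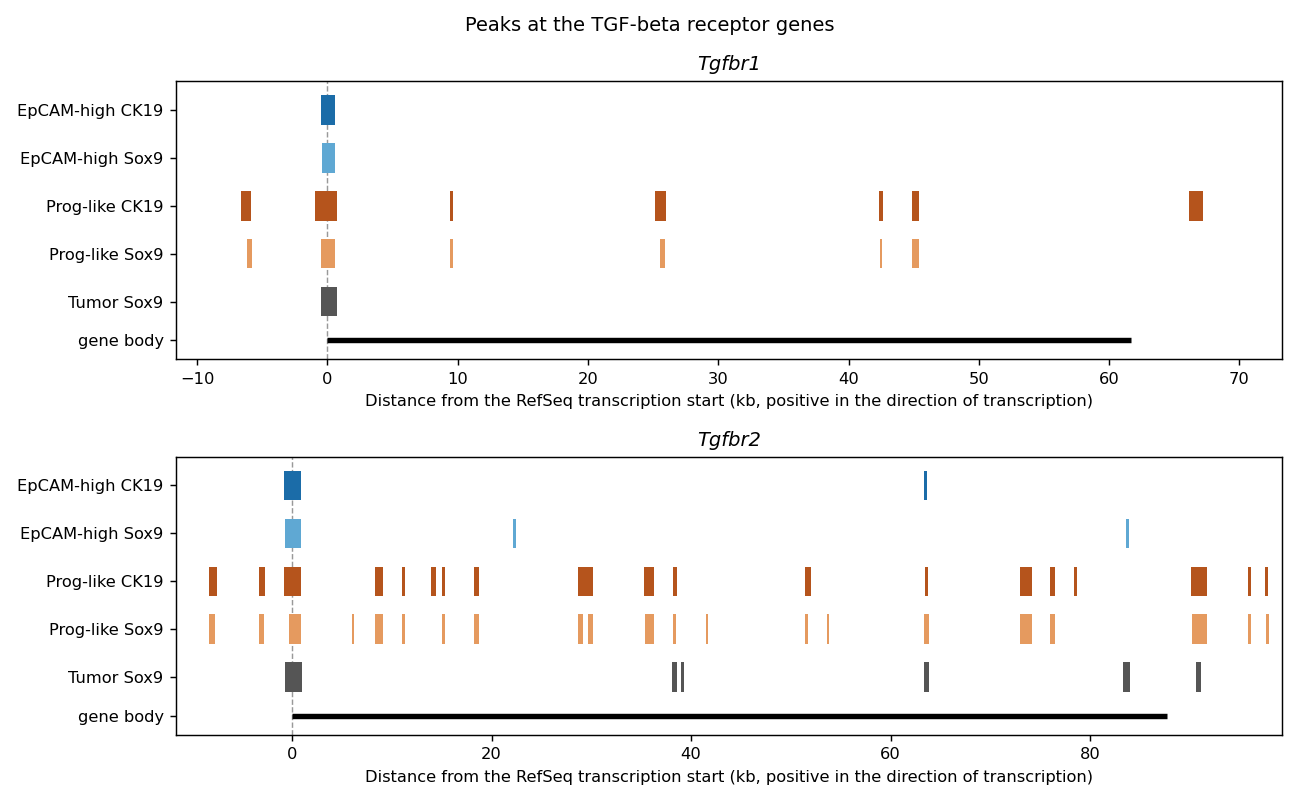
Peaks of the 5 lists (coloured blocks, 1 line per list) at Tgfbr1 and Tgfbr2 against the distance from the RefSeq transcription start in kb; the black bar is the gene body, the dashed line the start, and the narrowest peaks are drawn slightly wider than they are. Every list has a block at the start, and most other blocks belong to the Prog-like lists. At Tgfbr2 the Tumor list has blocks inside the gene and a block beyond its far end, and the EpCAM-high lists have a few inside the gene.

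The SMAD genes differed from the receptors. Smad3 (chromosome 9, 63646766 to 63757994), which carries the signal to the nucleus, held 5, 14, 7, 10 and 4 peaks, and 2, 6, 7, 6 and 4 at equal length. EpCAM-high Sox9 was the highest list as deposited, and at equal length it was level with the Prog-like lists while EpCAM-high CK19 was the lowest. Of the 18 regions 1, at the start, was in all 5 lists, 5 were in 1 list alone and 4 were in EpCAM-high and Prog-like lists without the Tumor list. Both Prog-like lists alone held 3, among them regions 19.8 and 26.5 kb into the gene, the second in the top 13.5% and 21.2% of these lists. The 5 regions of a single list all belonged to EpCAM-high Sox9 and ranked between its top 78.7% and 90.5%, near the lower end of that list.

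Smad7 (chromosome 18, 75367365 to 75395935), the inhibitor, held 11, 13, 8, 9 and 7 peaks, and 8, 8, 3, 4 and 7 at equal length. The EpCAM-high lists were the highest in both settings, and at equal length the Tumor list stood beside them and the Prog-like lists below. Per 10 kb of locus it had the most peaks of the members in every list but the Prog-like lists, at 2.26, 2.68, 1.65, 1.85 and 1.44. In Prog-like CK19 Tgfb1 and Tgfbr2 had more per 10 kb, and in Prog-like Sox9 these 2 genes did too. Of the 21 Smad7 regions 4 were held by EpCAM-high and Tumor lists and by no Prog-like list, the most of any member, and 3 by both EpCAM-high lists alone. Of those 4, the regions at 75375419 to 75375869, 75384763 to 75385368 and 75386066 to 75386463 were held by both EpCAM-high lists and ranked between the top 17.0% and 47.1% of each list.

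**Figure D3:**
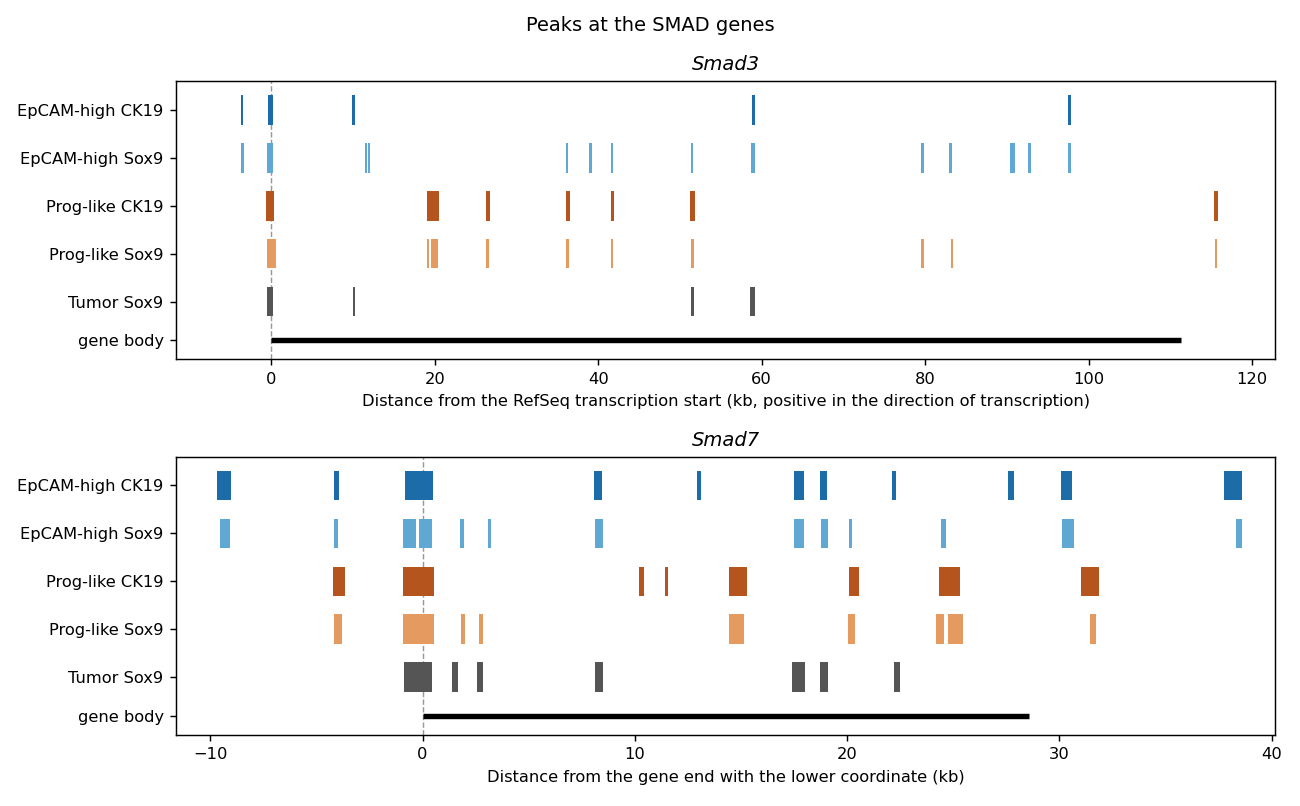
Peaks of the 5 lists (coloured blocks, 1 line per list) at Smad3, against the distance from the RefSeq transcription start in kb, and at Smad7, against the distance in kb from the gene end with the lower coordinate; the black bar is the gene body, and the narrowest peaks are drawn slightly wider than they are. EpCAM-high Sox9 has 14 blocks at Smad3, and at Smad7 the Tumor list shares 4 blocks inside the gene with EpCAM-high lists and no Prog-like list, beside 1 block of its own and 1 shared with Prog-like Sox9 alone.

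The latent binding protein genes had opposite orders. Ltbp1 (chromosome 17, 75005480 to 75392512) held 17, 20, 11, 9 and 2 peaks, and 14, 14, 4, 4 and 2 at equal length. The EpCAM-high lists were the highest, and the Tumor list the lowest, in both settings. Prog-like minus EpCAM-high came to -6 (CK19) and -11 (Sox9) peaks as deposited and to -10 in each set at equal length. Ltbp1 is the longest member, and per 10 kb it had 0.418, 0.491, 0.270, 0.221 and 0.0491 peaks. Of 33 regions 9 were held by both EpCAM-high lists alone (27.3%, 13.3 to 45.5), 4 by both Prog-like lists alone and none by all 5 lists. The strongest of these 9 lay 105 kb from the first start (75110111 to 75111246), in the top 3.998% and 7.75% of the EpCAM-high lists.

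A start-site peak was present at the first Ltbp1 start in both EpCAM-high lists, with widths of 1645 and 1556 bp and ranks in the top 20.5% and 23.3%. Prog-like CK19 held a peak of 581 bp there, at the top 80.2% of its list and with its summit at -503 bp, and Prog-like Sox9 and the Tumor list held none. The highest-ranked Prog-like peaks of the gene lay 114 kb from the first start (75118997 to 75120095), in the top 3.62% and 1.96%, in a region that both EpCAM-high lists also held. The Tumor list held a peak 302 kb from the first start (75306981 to 75307726) in its top 3.58%, shared with both EpCAM-high lists, and 1 further peak at the top 99.1%.

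Ltbp2 (chromosome 12, 84783212 to 84876558) held 3, 4, 9, 8 and 1 peaks, and 3, 2, 5, 5 and 1 at equal length. The Prog-like lists were the highest and the Tumor list the lowest. The region held by all 5 lists lay in the flank at the starts of Npc2 and Isca2, and it was the only Tumor peak counted at Ltbp2, so the Tumor list held none in the gene body. Both Prog-like lists alone held 5 of the 10 regions, 21.3 to 73.7 kb into the gene. The start-site peak was narrow, at 296, 273, 326 and 203 bp in the 4 lists that held it, with summits from -448 to -479 bp. Ccdc93 was the single protein-coding gene with the same 5 counts as Ltbp2 at equal length.

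**Figure D4:**
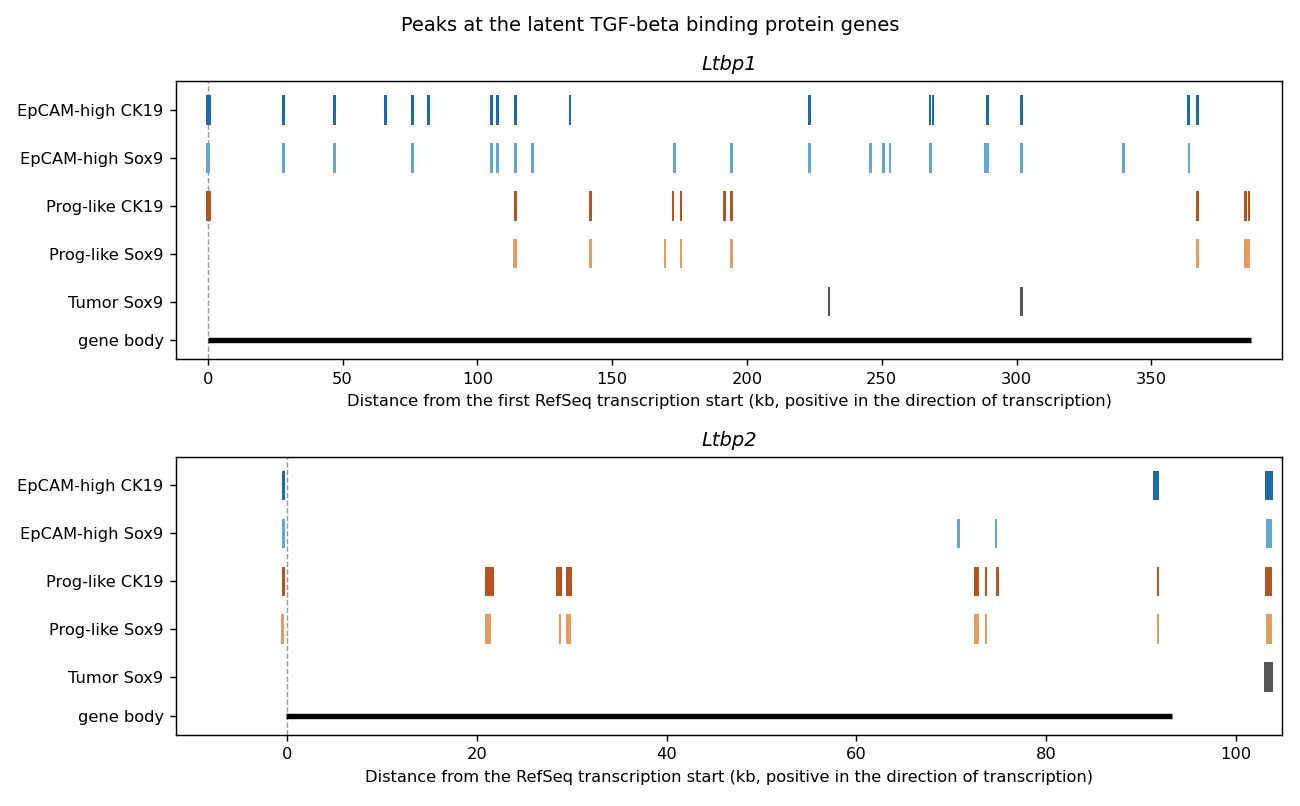
Peaks of the 5 lists (coloured blocks, 1 line per list) at Ltbp1 and Ltbp2 against the distance from the first RefSeq transcription start in kb; the black bar is the gene body, the dashed line the start, and most peaks are drawn wider than they are so that they can be seen. The EpCAM-high lists have 17 and 20 blocks along Ltbp1, and the Prog-like lists have 9 and 8 at Ltbp2.

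Tgfbi (chromosome 13, 56609586 to 56639359), which encodes a matrix protein induced by TGF-beta, held 2, 1, 8, 7 and 1 peaks. At equal length it held 2, 1, 2, 2 and 1, so that most of its Prog-like peaks were not among the strongest 39644 of their lists. The 5 regions held by both Prog-like lists alone ranked between the top 35.5% and 78.9% of those lists. The start-site peak was present in EpCAM-high CK19 (top 59.6%), Prog-like CK19 (85.8%) and Prog-like Sox9 (89.2%), with summits at 3, -26 and -3 bp from the start, and the other 2 lists held none.

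A start-site peak (within 1000 bp of a RefSeq start, or of either gene end for Tgfb3 and Smad7) was present at 10, 9, 10, 9 and 7 of the 10 members. The share of all protein-coding genes with one was 59%, 59%, 57.6%, 54.6% and 52%, and among genes of the members' length range it was 72.5%, 72.6%, 69.6%, 66.2% and 63.4%. The exact 95% intervals of the members' shares were 69.2 to 100%, 55.5 to 99.7%, 69.2 to 100%, 55.5 to 99.7% and 34.8 to 93.3%, and each held the share of the length range. The 3 members without one in the Tumor list were Ltbp1, Ltbp2 and Tgfbi. At equal length the counts were 9, 8, 8, 8 and 7, against 54.4%, 52.4%, 48.3%, 46.3% and 52% of all genes and 67.8%, 66.2%, 59.2%, 57.6% and 63.4% of genes in the length range.

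Prog-like was compared with EpCAM-high, separately for CK19 and Sox9, by a rule of size that calls a gene higher where its locus holds at least 2 more peaks and at least 2 times as many. In the CK19 set 4 members were higher in Prog-like (Tgfbr1, Tgfbr2, Ltbp2 and Tgfbi), against 22.4% of all protein-coding genes and 31.9% in the members' length range. None was higher in EpCAM-high CK19, against 8.12% and 10.6%. In the Sox9 set 6 were higher in Prog-like, with Tgfb1 and Tgfb2 added, against 17.8% and 24.9%, and Ltbp1 alone was higher in EpCAM-high, against 10.9% and 14%. The exact interval of the CK19 share, 12.2 to 73.8%, held both backgrounds, whereas that of the Sox9 share, 26.2 to 87.8%, began just above 24.9%. The members were chosen with earlier results of these data known, so nothing is read from these intervals about the set.

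Equal length changed which members passed. In the CK19 set 5 members were then higher in Prog-like (Tgfb1, Tgfb2, Tgfbr1, Tgfbr2 and Smad3), against 11.7% of all genes and 17.6% in the length range, and Smad7 and Ltbp1 were higher in EpCAM-high, against 10% and 14%. In the Sox9 set 4 were higher in Prog-like (Tgfb2, Tgfbr1, Tgfbr2 and Ltbp2), against 11% and 16.6%, and the same 2 in EpCAM-high, against 10.3% and 14.2%. Tgfbr1 and Tgfbr2 passed in both sets and both settings. The exact interval of the CK19 share, 18.7 to 81.3%, began just above 17.6%, and that of the Sox9 share, 12.2 to 73.8%, held 16.6%. Which set had an interval above the background thus changed with list length, and nothing is read from it here either. Ltbp2 and Tgfbi lost the CK19 call, with 5 against 3 and 2 against 2 peaks.

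The Tumor list was compared with the other Sox9 lists. Against EpCAM-high Sox9, Tgfbr2 was higher in Tumor (3.01% of all genes, 3.8% in the length range), and Smad3, Ltbp1 and Ltbp2 were higher in EpCAM-high (15.6% and 22.2%). At equal length Tgfb2 and Tgfbr2 were higher in Tumor (7.31% and 9.18%) and Ltbp1 in EpCAM-high (7.25% and 11%). Against Prog-like Sox9, no member was higher in Tumor (5.66% and 7.3%, and 11.2% and 13.9% at equal length), and 8 were lower, all but Tgfb3 and Smad7 (25% and 35.3%). At equal length 5 remained lower, namely Tgfb1, Tgfbr1, Tgfbr2, Ltbp1 and Ltbp2 (11.5% and 17.6%). The comparisons share lists, so they are not independent of each other.

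Between the sets, no member was higher in either Prog-like list (3.09% of all genes and 4% in the length range for CK19, 0.726% and 0.829% for Sox9), nor at equal length (1.4% and 1.63%, 0.525% and 0.683%). Between the EpCAM-high lists none was higher in CK19 (2.75% and 3.18%, and 2.61% and 3.55% at equal length). Smad3 was higher in Sox9 (5.44% and 7.92%), also at equal length (2.41% and 3.57%). Having no member called between the 2 Prog-like lists lies near these shares, and nothing is read from it about these genes. Smad3 was the only member called between the EpCAM-high lists.

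Joined over the 5 lists, the member loci held 144 regions, which were read against the 87466 regions at all protein-coding loci. Both Prog-like lists alone held 45 (31.3%, 23.8 to 39.5), against 27.9% of all regions, and both EpCAM-high lists alone held 16 (11.1%, 6.49 to 17.4), against 8.66%. All 5 lists held 10 (6.94%, 3.38 to 12.4), below the 13.7% of all regions. This background was not matched for gene length, and the member loci are long. Of the member regions 11.1% lay at a start of any protein-coding gene, against 18.3% of all regions. The part of length in the difference was not tested. Regions in EpCAM-high and Prog-like lists but not in the Tumor list numbered 17 (11.8%, 7.03 to 18.2), above 6.69%. The Tumor list is the shortest, and these classes were not counted again at equal length. The other classes had intervals that held the background share, as the plot of list patterns shows. Neighbouring regions are not independent, so the true uncertainty is wider than these intervals.

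**Figure D5:**
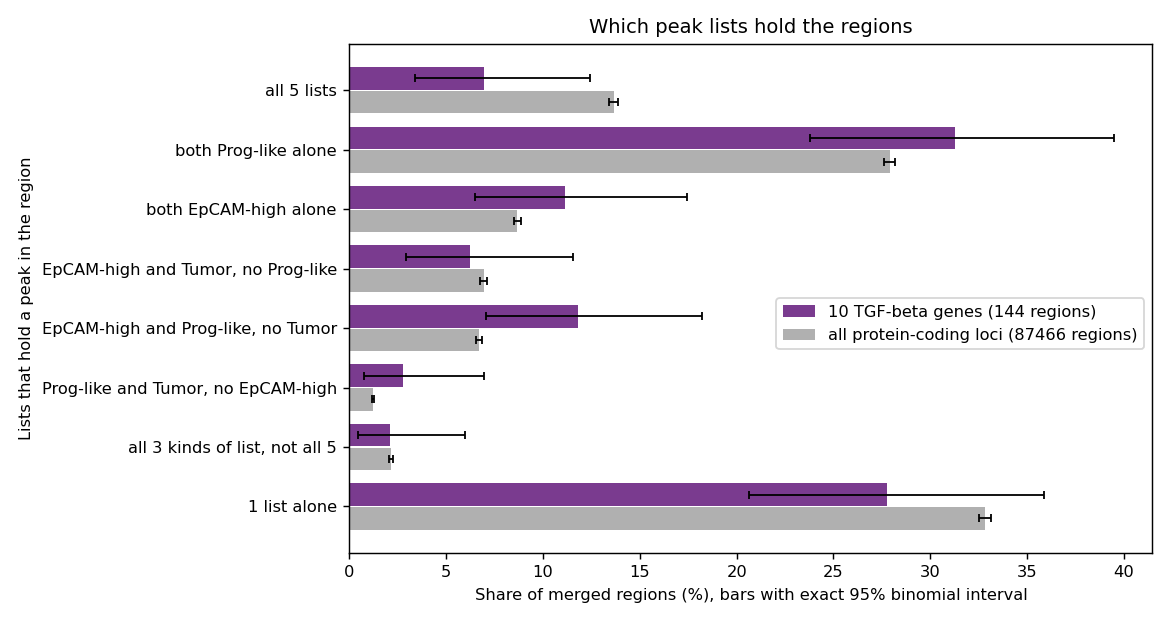
Share of merged regions (%, horizontal axis) by which lists hold a peak in them, for the 144 regions at the 10 TGF-beta genes (purple) and the 87466 regions at all protein-coding loci (grey); lines are exact 95% binomial intervals, which cover counting error only. The members lie below the background for regions in all 5 lists (6.94% against 13.7%) and above it for regions in EpCAM-high and Prog-like lists without the Tumor list (11.8% against 6.69%). The lists are as deposited, and the background is not matched for gene length.

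Regions in all 5 lists lay mostly at starts, and regions of 1 pair of lists lay away from them, at the members as at all loci. Of 13 regions at a member's own start (either gene end for Tgfb3 and Smad7), 7 were in all 5 lists, 3 in EpCAM-high and Prog-like lists without the Tumor list and 3 in 1 list. Those in 1 list lay at the second Ltbp1 start and at the Smad7 gene end opposite its region in all 5 lists. Counting a start of any protein-coding gene, 9 of the 10 member regions in all 5 lists lay at one (90.0%, 55.5 to 99.7), against 76.2% over all loci. Of the 45 regions in both Prog-like lists alone 0 did (0 to 7.87%), against 5.30%, and of the 16 in both EpCAM-high lists alone 0 did (0 to 20.6%), against 12.5%. Each interval held the share over all loci. The median distance to the nearest such start was 0.142 kb for regions in all 5 lists (0.221 kb over all loci), 18.5 kb for the Prog-like pair (17.3 kb) and 48.5 kb for the EpCAM-high pair (16.7 kb). Of the 16 regions of the EpCAM-high pair, 9 belonged to the long gene Ltbp1. Summits of the lists that shared a region lay a median of 13 bp apart in the Prog-like pair and 17 bp apart in the EpCAM-high pair.

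Pairs of lists shared the members' regions about as often as all regions. Both Prog-like lists held 76.3% of their joint member regions (66.4 to 84.5), against 74.5% of all regions, and both EpCAM-high lists 47.4% (36.0 to 59.1), against 51.9%. Prog-like and EpCAM-high shared 16.5% in the CK19 set (10.3 to 24.6), against 19.9%, and 18.1% in the Sox9 set (11.8 to 25.9), against 19.0%. Tumor shared 25.3% with EpCAM-high Sox9 (16.0 to 36.7), against 33.1%, and 14.9% with Prog-like Sox9 (8.56 to 23.3), against 17.9%. Every interval held the share of all regions.

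Other genes of the pathway were found on either side. Of 34 further genes (activin receptors and ligands, coreceptors, integrins that release latent TGF-beta, SMAD partners and targets), 11 were higher in Prog-like CK19 and 4 in EpCAM-high CK19, where 22.4% and 8.12% of all genes were. In the Sox9 set 7 and 8 were, against 17.8% and 10.9%. At equal length the counts were 6 and 6, against 11.7% and 10%, and 6 and 7, against 11% and 10.3%. With 34 genes, nothing is read from these counts about the list. Their median locus held 2, 3, 3, 3 and 1 peaks, against 2, 2, 2, 2 and 1 for all genes. In the members' length range the median gene held 2, 2, 3, 3 and 2. On the Prog-like side were Skil, a nuclear SMAD repressor, with 2, 3, 9, 6 and 2 peaks, Zfyve9, which presents SMADs to the receptor, with 1, 1, 6, 5 and 1, and Nrros, which holds latent TGF-beta on macrophages and microglia, with 0, 0, 3, 3 and 0. On the EpCAM-high side were Itgb6, the epithelial integrin subunit that activates latent TGF-beta, with 10, 11, 1, 0 and 1 peaks, and the coreceptor gene Tgfbr3, with 8, 8, 1, 0 and 6. Tgif1, a SMAD corepressor, had 6, 8, 3, 4 and 6, and Pmepa1, a feedback inhibitor, had 11, 12, 6, 5 and 5.

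Against the Tumor list, 10 of the 34 genes were higher in EpCAM-high Sox9 and 17 in Prog-like Sox9. The shares were 15.6% and 25% of all genes, and 22.2% and 35.3% in the members' length range. In Tumor 2 of the 34 were higher in each comparison, against 3.01% and 5.66% of all genes. At equal length 6 and 6 were lower in Tumor, against 7.25% and 11.5%, and 4 and 5 were higher, against 7.31% and 11.2%. The genes higher in Tumor included the inhibin subunit gene Inhbc, a liver-expressed gene, in both comparisons, with 1, 2, 3, 2 and 5 peaks. Smad4, the common SMAD partner, was higher in Tumor against EpCAM-high Sox9 alone, with 4, 1, 2, 2 and 3, and was highest in EpCAM-high CK19. The binding protein gene Ltbp4 had fewest peaks in Tumor, with 6, 9, 6, 5 and 1, as did the type I receptor gene Acvr1b with 5, 7, 6, 7 and 1. Itgav, the integrin chain that pairs with Itgb6, had 7, 10, 12, 11 and 4. Start-site peaks were present at 28, 29, 28, 24 and 26 of the 34 genes, where 59%, 59%, 57.6%, 54.6% and 52% of all genes had one. In the members' length range the shares were 72.5%, 72.6%, 69.6%, 66.2% and 63.4%. Neither background was matched to the lengths of the 34 genes, so nothing is read from these counts about the list.

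Markers of cell types also differed between the lists, though not all markers of a type went the same way. The 7 biliary markers held 43, 47, 6, 4 and 13 locus peaks in sum, with Krt19 and Krt7 at 0 in the Prog-like and Tumor lists, and all 7 had a start-site peak in both EpCAM-high lists. Epcam went against that sum as deposited, with 2, 2, 3, 3 and 1 peaks and a start-site peak in every list. With lists of equal length it held 2, 2, 1, 1 and 1, highest in the EpCAM-high lists. The 7 macrophage markers held 4, 7, 54, 47 and 6, all 7 with a start-site peak in both Prog-like lists, and Adgre1, Lyz2, Clec4f and Vsig4 were at 0 in the other 3 lists. The 5 endothelial markers held 9, 12, 43, 37 and 11. Lyve1 did not follow that sum, with 4, 6, 4, 4 and 2, while each of the others was highest in the Prog-like lists. A start-site peak was present at 1, 0, 3, 3 and 0 of the 5 endothelial markers, and Pecam1 and Stab2 had none in any list. The 6 stellate markers held 21, 24, 19, 18 and 3, with Des at 0 in every list. Reln carried most of the EpCAM-high sum (15, 13, 1, 1 and 1), and Col1a1 was also highest in the EpCAM-high lists (3, 5, 1, 0 and 1). Pdgfrb (1, 2, 9, 8 and 0) and Acta2 (1, 3, 7, 8 and 0) were highest in the Prog-like lists. Of the 6 stellate markers 3, 4, 3, 3 and 2 had a start-site peak, and Pdgfrb had none in any list. The 5 T cell markers held 3, 3, 10, 10 and 4, with Cd3e and Thy1 at 0 in every list. Their sums at equal length were 1, 2, 4, 4 and 4, and no T cell marker had a start-site peak in any list. The 6 hepatocyte markers held 16, 17, 9, 7 and 20, with Alb and Apoa1 at 0 in the Prog-like lists and Cyp2e1 at 0 in every list. Their sums at equal length were 12, 8, 3, 2 and 20, and 3, 3, 0, 0 and 5 of the 6 had a start-site peak. Hnf4a held 5, 5, 5, 5 and 6 as deposited, and 2, 2, 3, 2 and 6 at equal length. Its start-site peak was present in both EpCAM-high lists and the Tumor list, and in neither Prog-like list. At equal length the biliary sums were 25, 34, 1, 1 and 13 and the macrophage sums 3, 4, 27, 25 and 6. The endothelial sums were then 7, 9, 21, 23 and 11 and the stellate sums 17, 10, 8, 9 and 3. The part of these cell types in the results at the TGF-beta genes was not tested.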

How the data were processed

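ATAC-seq of sorted mouse liver cells was analysed from 5 peak lists. Per the submitters' processing notes, the build was mm10 and the tools were MACS2, HOMER, deepTools and Bowtie 1.1.2, with no role or order. Pooling of libraries, read shifting and duplicate removal are not stated in the labels, and read depth is unknown. The deposited peaks have a fold enrichment (a linear ratio) and −log10 p and −log10 q values made by the authors, with a lowest −log10 q of 1.30 to 1.32. These values served to rank and filter peaks inside each list.

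Peaks were counted with Python 3.11.15, numpy 2.4.6, pandas 2.3.3 and scipy 1.17.1 (minimum overlap 1 bp) at 21887 protein-coding genes of RefSeq GRCm38.p6. Starts came from a RefSeq promoter table for 17492 genes, 8 of the members among them, and from either gene end otherwise. Overlap counting was tested on simulated data. The 95% intervals (exact, Clopper-Pearson) reflect counting error alone. Alternatives were equal list length, −log10 q of at least 5, the gene body alone, a start window of 2500 bp and an overlap of 50% of either peak.

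The members and gene lists were chosen with earlier results of these data known. All members were named. Of the 34 pathway genes, up to 3 per direction and pair were named, those with the largest difference among genes past the size rule in both list settings. A gene was called like a member where its 5 counts at equal length were the same, and named where 3 or fewer were. The length-range background, the place of regions over all loci, the densities per 10 kb, the motifs, the intervals of called shares and the printed promoters were chosen after seeing the data.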

Additional observations from a re-analysis of the deposited data

Results flagged for a closer look

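Smad3 was singled out because its locus differed in opposite directions in the CK19 and Sox9 sets. Prog-like held 2 more peaks than EpCAM-high in the CK19 set (7 against 5), and in the Sox9 set the difference of Prog-like minus EpCAM-high was -4 peaks (10 against 14). At equal length the differences were 5 and 0. The difference between the sets was not tested.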

How the results depend on the processing

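Lists of equal length moved 8 of the 28 main values. The members' peaks in EpCAM-high Sox9, Prog-like CK19 and Prog-like Sox9 fell to 41, 53 and 52. Members higher in EpCAM-high than in Prog-like became 2 in the CK19 set (0 as deposited) and 2 in the Sox9 set (1 as deposited). Members higher in Tumor than in EpCAM-high Sox9 became 2 (from 1), higher in EpCAM-high Sox9 than in Tumor 1 (from 3), and higher in Prog-like Sox9 than in Tumor 5 (from 8). Fewer peaks are counted by construction. With a −log10 q of at least 5, members higher in EpCAM-high Sox9 numbered 0 against Prog-like Sox9 and 5 against Tumor, and in the gene body alone 0 members were higher in Tumor than in EpCAM-high Sox9; the cause was not tested. The other main values moved by less than 1.5 times or stayed within their intervals, in 26, 22, 6 and 5 comparisons with a −log10 q of at least 5, the gene body alone, an overlap of 50% and a window of 2500 bp. No paired analysis was possible because each condition has 1 list and no result comes from a test. Of the 50 peak counts of single members, 15 moved at equal length, 4 with a −log10 q of at least 5 and 18 in the gene body alone. Smad3 in EpCAM-high CK19 went from 5 to 2 with a −log10 q of at least 5, and Tgfb3 went from 2 to 0 in both EpCAM-high lists in the gene body alone. Read depth is unknown, so the lists' lengths could not be set against it.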
